A study of Saccharomyces cerevisiae with 24 samples.

Results

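The state of budding yeast after 72 h in 200 mM CaCl2 was measured in a strain that lacks both the transcription factor Crz1 and calcineurin activity. The members were the 3 libraries of the crz1 cnb1 strain taken at 72 h and the 3 untreated libraries of the same strain, 6 of 24 libraries in all. PolyA RNA was sequenced from triplicate cultures of 2 haploid strains of the BY4741 background, each untreated and after 12, 48 and 72 h in CaCl2. The groups used were crz1 cnb1 at 72 h, 48 h, 12 h and untreated, and crz1 at 72 h and untreated, with 3 libraries each. Both strains are MATa and carry crz1delta::LEU2 together with the auxotrophic alleles his3delta1, leu2delta0, ura3delta0 and lys2delta0. A HYG-TEFp-GFP(Y66F) cassette sits on chromosome VI (181901 to 182001) in both, and cnb1delta::KanMx is present in crz1 cnb1 and absent from crz1. All cultures grew in synthetic medium whose nitrogen source was ammonium chloride, and treated cultures were diluted at 12 h intervals to stay in logarithmic growth. No untreated library was taken at 12, 48 or 72 h, so time in CaCl2 and time in culture with repeated dilution cannot be told apart.

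Calcineurin is a phosphatase switched on by calcium and calmodulin, and Cnb1 is the regulatory subunit without which it is inactive. Its best known target in yeast is Crz1, which enters the nucleus when dephosphorylated and turns on genes for ion transport and the cell wall, so crz1 cells keep the other branches of calcineurin signalling and crz1 cnb1 cells keep none. Much of what follows concerns iron. When iron-sulfur clusters run short, the transcription factors Aft1 and Aft2 bind promoters that carry the core TGCACCC and turn on iron uptake, and the RNA-binding proteins Tis11 (Cth2) and Cth1 shorten the life of mRNAs for iron-using proteins such as those of respiration.

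The deletions were read in the libraries first. CNB1 had 10 to 14 counts per library at 72 h and 3 to 17 untreated in crz1 cnb1, against 1971 to 2560 at 72 h and 2001 to 2542 untreated in crz1, and CRZ1 had 0 to 4 counts in each of these groups. Of the defining genes of the a mating type, STE2 lay at 487 to 543 CPM at 72 h and 1156 to 1264 CPM untreated. MF(ALPHA)1 of the other mating type lay at or below 1.19 CPM in the 6 libraries. MF(ALPHA)2 of that type had 1 to 6 counts at 72 h and 13 to 22 untreated, and STE3 had 10 to 23 and 123 to 231. SAG1, also counted to that type, was not low, with 661 to 770 counts at 72 h and 525 to 650 untreated. Libraries held 21582317 to 22016465 counts, and 6089 genes could be tested. Untreated replicate 1 of crz1 cnb1 stood apart from untreated replicates 2 and 3 on the first principal component (-19.5, against -38.8 and -39.7). So did untreated replicate 1 of crz1 (-21.1, against -38.0 and -39.8). Levels below are TMM-normalised CPM, changes are log2 ratios of 72 h over untreated ± standard error with 3 libraries per group, and adjusted p-values are from the quasi-likelihood test of edgeR with Benjamini-Hochberg adjustment over all tested genes.

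The 72 h state differed from the untreated state in 2175 genes, 35.7% of those tested, with 1222 higher (20.1%) and 953 lower (15.7%). At least 2-fold changes were called for 337 genes upward (5.53%) and 304 downward (4.99%). The 3 libraries at 72 h did not overlap the 3 untreated ones for 59.3% of tested genes, so absence of overlap alone says little about a gene here. Without any single one of the 6 libraries in turn, 1291 of the 2175 genes kept their call, 805 of them higher and 486 lower. The plot of the 15 largest rises and falls is limited to called genes with a standard name whose mean reached 10 CPM in either group and whose groups did not overlap, so some larger changes of rarer RNAs are not in it. FIT1, FIT3 and LSO1 lead the rises, and HSP30, CYC1 and FMP48 are among the falls. Since RNA was taken from whole cultures, fewer cells of a kind and less RNA per cell cannot be told apart.

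**Figure D1:**
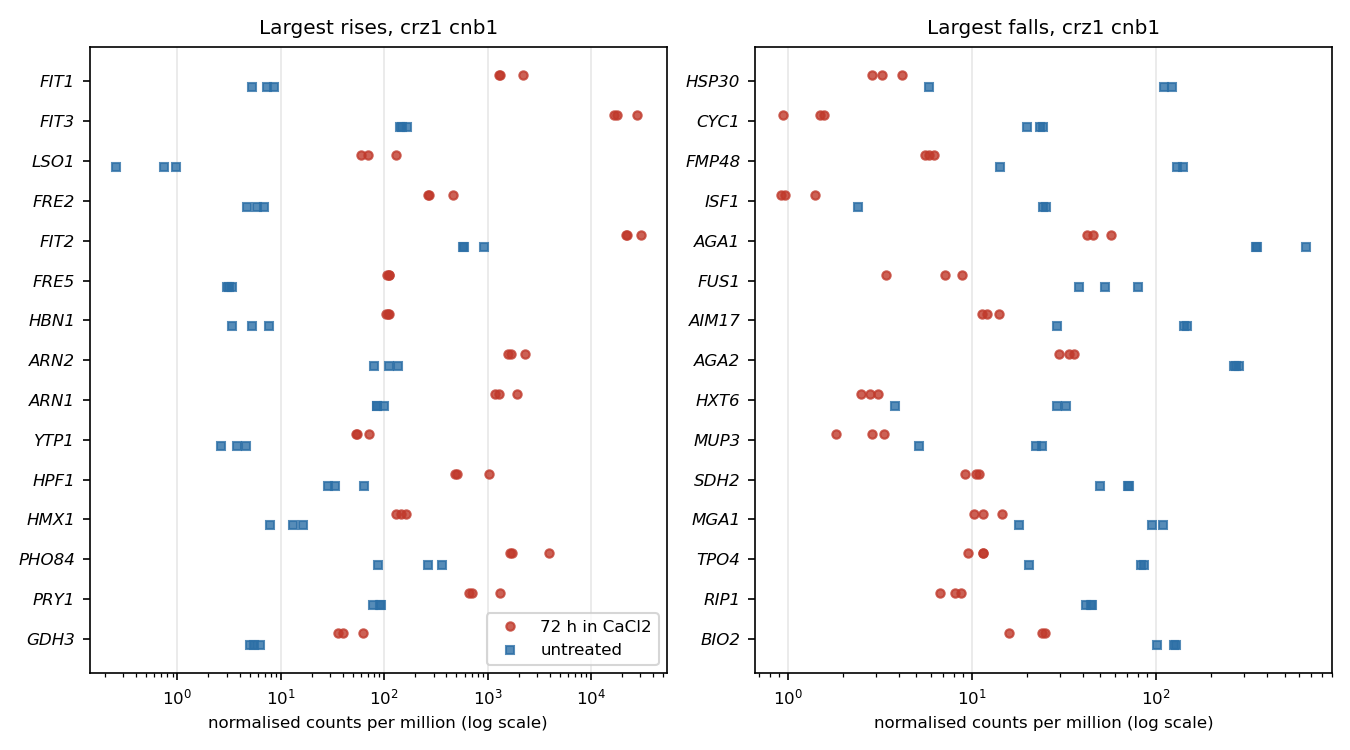
Normalised CPM (log axis) of the 15 genes with the largest rise (left panel) and the 15 with the largest fall (right panel) among called, named genes with a group mean of at least 10 CPM and no overlap, with 1 point per library and 72 h libraries as red circles above untreated libraries as blue squares. FIT1 lies between 1298 and 2198 CPM at 72 h and between 5.245 and 8.63 CPM untreated. In 8 of the 15 falls, HSP30 among them, untreated replicate 1 lies below 0.5 times untreated replicates 2 and 3.

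The largest rise was that of FIT1 (YDR534C), whose product is a cell wall mannoprotein that helps to hold iron-loaded siderophores at the cell surface. FIT1 had 1298, 1322 and 2198 CPM at 72 h, against 8.63, 5.245 and 7.40 CPM untreated (log2 change 7.82 ± 0.80, adjusted p = 1.8e-06). FIT3 (YOR383C), of the same kind, had 16730, 17976 and 27983 CPM at 72 h, against 149, 143 and 165 CPM untreated (7.10 ± 0.54). In both genes 72 h replicate 3 was the highest library and the groups lay far apart. LSO1 (YJR005C-A), a short gene known to be induced on iron loss, had 70.5, 59.4 and 129 CPM at 72 h, against 0.973, 0.256 and 0.744 CPM untreated (7.02 ± 1.42). Its untreated level was below 1 CPM in every library, which leaves its fold change with a wide error.

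Stretches upstream of these 3 genes are shown because each holds the Aft core, given in capitals as TGCACCC or, on the other strand, GGGTGCA. They were read from RefSeq's R64 genome on the minus strand, 5′ to 3′, at chrIV:1505061-1505220 for FIT1, chrXV:1061216-1061375 for FIT3 and chrX:448859-448978 for LSO1. The first and last base lie 320 and 161 bases before the reading frame for FIT1 and FIT3, and 220 and 101 bases before it for LSO1.
FIT1: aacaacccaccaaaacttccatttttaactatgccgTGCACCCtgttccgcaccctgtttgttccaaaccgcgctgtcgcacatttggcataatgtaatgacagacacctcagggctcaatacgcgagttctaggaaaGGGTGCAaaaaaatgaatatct
FIT3: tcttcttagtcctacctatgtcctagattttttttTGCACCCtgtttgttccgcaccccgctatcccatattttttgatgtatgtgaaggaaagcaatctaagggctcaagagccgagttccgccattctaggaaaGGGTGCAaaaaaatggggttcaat
LSO1: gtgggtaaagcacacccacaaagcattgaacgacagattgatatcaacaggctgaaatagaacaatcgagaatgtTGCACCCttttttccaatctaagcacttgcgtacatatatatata

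FIT1 and FIT3 each held the core in both orientations within the stretch, and LSO1 held it once. The FIT3 stretch also lies upstream of FRE5 (YOR384W), which is read the opposite way from position 1061564, and both matches lie within 500 bases before that gene too. Upstream regions were read for the 5703 of 6089 tested genes that RefSeq places with a full 500 bases before them, which leaves 330 of the 337 genes called at least 2-fold higher and 201 of the 304 called at least 2-fold lower. TGCACCC on either strand was found within 500 bases before the reading frame in 135 of these 5703 genes (2.37%). It was found in 39 of the 330 higher genes (11.8%) and in 3 of the 201 lower ones (1.49%). In the shorter window of 250 bases before to 50 after the start, the shares were 1.32% of the 5703 genes, 6.67% of the higher and 0.498% of the lower genes. A match describes these letters and no binding was measured.

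Siderophore uptake rose as a whole. All 7 tested genes of siderophore capture and transport were called higher, beside 20.1% of all genes. Their median change was 4.09, against 0.01 over all tested genes. All 7 held the Aft core within 500 bases, and 5 held it from 250 bases before to 50 after the start. FIT2, the third mannoprotein gene, had 22429, 21644 and 30113 CPM at 72 h, against 593, 916 and 573 CPM untreated (5.16 ± 0.39, adjusted p = 8.7e-09). The transporter gene ARN1 had 1179, 1282 and 1906 CPM at 72 h, against 84.6, 98.7 and 85.9 CPM untreated (4.02 ± 0.20). ARN2 rose by 4.09 ± 0.27, SIT1 by 2.50 ± 0.30 and ENB1, the carrier of enterobactin, by 1.87 ± 0.26, so the transporters rose less than the mannoproteins did. In every member the lowest 72 h library lay above the highest untreated one.

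In reductive uptake, surface reductases release ferrous iron and the oxidase Fet3 passes it to the permease Ftr1. It was called higher for 9 of 11 genes and lower for 1, beside 20.1% and 15.7% of all genes. FRE2, a ferric reductase gene, had 269, 263 and 464 CPM at 72 h, against 4.74, 5.93 and 6.83 CPM untreated (5.83 ± 0.50, adjusted p = 1.4e-07). FRE5 had 112, 106 and 111 CPM at 72 h, against 3.13, 3.37 and 3.02 CPM untreated (5.11 ± 0.52). FTR1 rose by 2.63 ± 0.34, FRE3 by 2.20 ± 0.22, FRE1 by 1.98 ± 0.29 and FET3 by 1.95 ± 0.29. FRE4 alone was not called (8.51, 8.66 and 15.9 CPM at 72 h, against 14.01, 17.1 and 15.1 CPM untreated, adjusted p = 0.24). The member that fell was FET4, a low-affinity carrier of iron and other divalent metals, with 28.8, 25.2 and 31.3 CPM at 72 h, against 101, 170 and 181 CPM untreated (-2.41 ± 0.33, adjusted p = 2.2e-05). FET4 carries the Aft core within 500 bases as well, and only FRE1 of the 11 does not. From 250 bases before to 50 after the start, 6 of the 11 hold it.

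Among 17 genes of intracellular iron use and its control, 8 were called higher and 4 lower, beside 20.1% and 15.7% of all genes. The median was 0.02, so this list did not move as a block. AFT1 itself had 147, 157 and 150 CPM at 72 h, against 71.5, 46.5 and 40.7 CPM untreated (1.52 ± 0.35, adjusted p = 0.0025), and AFT2 rose by 0.87 ± 0.18. The mRNA decay factors of iron shortage moved apart. TIS11 had 231, 266 and 175 CPM at 72 h, against 62.4, 52.9 and 46.2 CPM untreated (2.06 ± 0.53, adjusted p = 0.0064). CTH1 had 24.8, 23.8 and 23.7 CPM at 72 h, against 57.4, 52.2 and 59.2 CPM untreated (-1.22 ± 0.16). HMX1, a heme oxygenase that frees iron from heme, rose by 3.54 ± 0.71. FTH1 and FET5, which together move iron out of the vacuole, rose by 1.79 ± 0.31 and 1.29 ± 0.21. GRX4, a glutaredoxin that restrains Aft1, was called lower (-1.85 ± 0.65, adjusted p = 0.035), but this call was lost without any one of the 3 libraries at 72 h or without untreated replicate 2 or 3 (adjusted p from 0.0662 to 0.0909).

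**Figure D2:**
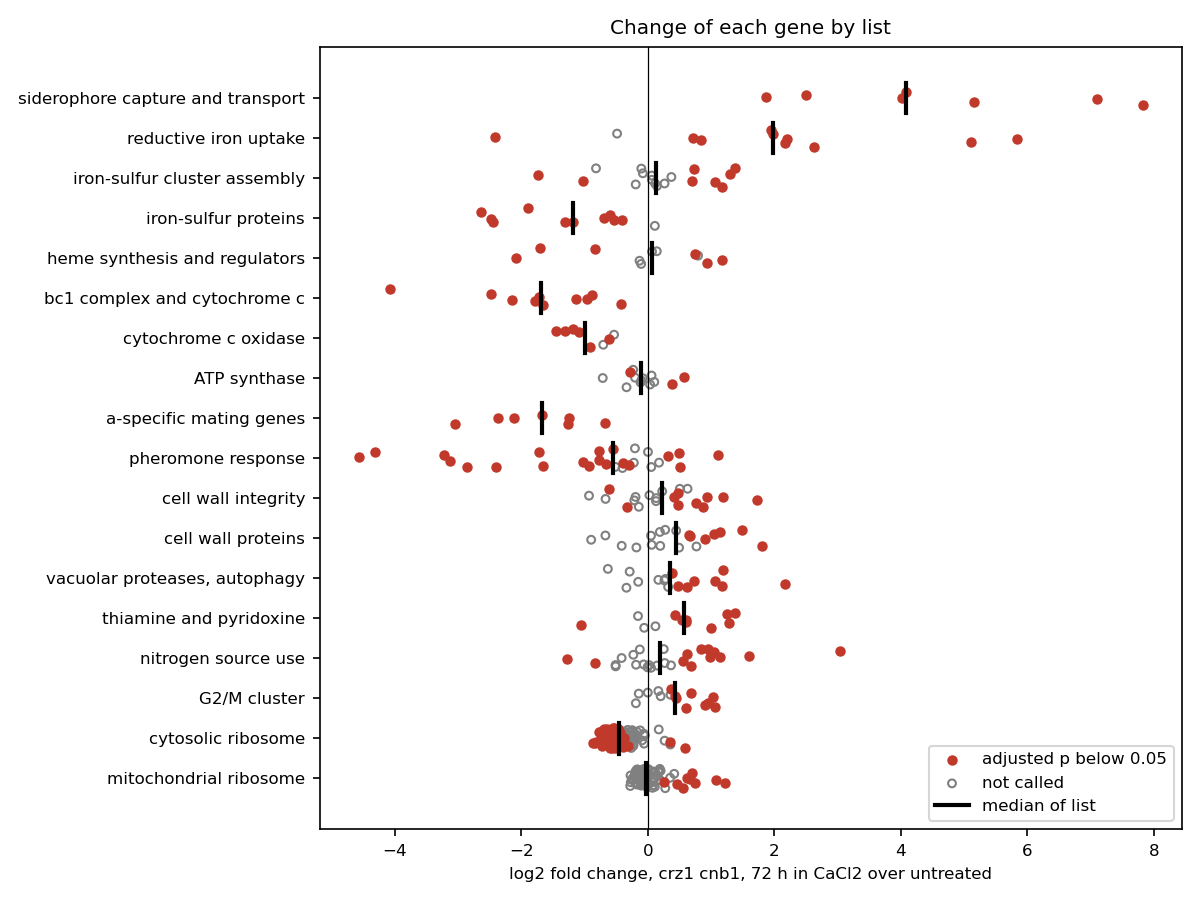
Log2 change of 72 h over untreated in crz1 cnb1 for each tested member of selected gene lists, with 1 point per gene, called genes in red, other genes in grey and the list median as a black bar. Siderophore genes lie to the right with a median of 4.09, and iron-sulfur enzymes and the bc1 complex lie to the left with medians of -1.18 and -1.69.

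Genes of enzymes that hold iron-sulfur clusters went down. Of 11 tested members 10 were called lower and none higher, with a median of -1.18, beside 15.7% of all genes called lower. SDH2, the cluster-bearing subunit of succinate dehydrogenase, had 10.96, 10.5 and 9.22 CPM at 72 h, against 49.5, 71.4 and 70.4 CPM untreated (-2.64 ± 0.48, adjusted p = 0.00039). BIO2, biotin synthase, had 24.95, 24.02 and 15.9 CPM at 72 h, against 101, 128 and 125 CPM untreated (-2.45 ± 0.34). GLT1, glutamate synthase, had 28.1, 24.7 and 27.6 CPM at 72 h, against 103, 92.8 and 102 CPM untreated (-1.89 ± 0.32). None of these groups overlapped, and the 72 h libraries were close together. RLI1, needed to recycle ribosomes, fell by 1.18 on the log2 scale (SE 0.17), LYS4 of lysine synthesis was at -0.54 ± 0.15 and LEU1 of leucine synthesis at -0.59 ± 0.16, a call that was lost on log2(TPM + 1) with limma (adjusted p = 0.0734). The smallest called fall was ILV3 (-0.41 ± 0.14, adjusted p = 0.032), and it was lost without 72 h replicate 1 or 2 or untreated replicate 1 or 3 (adjusted p 0.0735 to 0.115) and on log2(TPM + 1) with limma (0.156). Aconitase, ACO1, did not pass (228, 237 and 215 CPM at 72 h, against 246, 169 and 214 CPM untreated, adjusted p = 0.77).

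The machinery that builds the clusters did not follow the enzymes. Of 18 tested assembly genes 6 were called higher and 2 lower, beside 20.1% and 15.7% of all genes. The scaffold genes ISU1 and ISU2 rose by 1.07 ± 0.14 and 1.31 ± 0.31, the sulfur donor gene NFS1 by 0.73 ± 0.15, the ferredoxin gene YAH1 by 0.70 ± 0.11, the mitochondrial exporter gene ATM1 by 1.17 ± 0.20 and NAR1 of the cytosolic branch by 1.38 ± 0.17. The 2 that fell were YFH1, frataxin, with 29.8, 31.3 and 21.3 CPM at 72 h, against 89.1, 89.8 and 95.1 CPM untreated (-1.73 ± 0.22, adjusted p = 6.3e-06), and the glutaredoxin gene GRX5 (-1.02 ± 0.20).

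Heme synthesis was split along the pathway. HEM1, the first enzyme, rose by 0.74 ± 0.13, while HEM4 (-0.83 ± 0.16), HEM13 (-1.69 ± 0.31) and HEM15 fell, and 5 members of this list of 11 were not called. HEM15, ferrochelatase, which puts iron into the porphyrin ring, had 43.3, 48.6 and 43.5 CPM at 72 h, against 179, 193 and 201 CPM untreated (-2.08 ± 0.31, adjusted p = 3.7e-05). The heme-responsive regulator genes HAP1 and MOT3 rose by 1.18 ± 0.30 and 0.94 ± 0.21. CCP1, the heme-bearing cytochrome c peroxidase, fell (-2.27 ± 0.35).

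**Figure D3:**
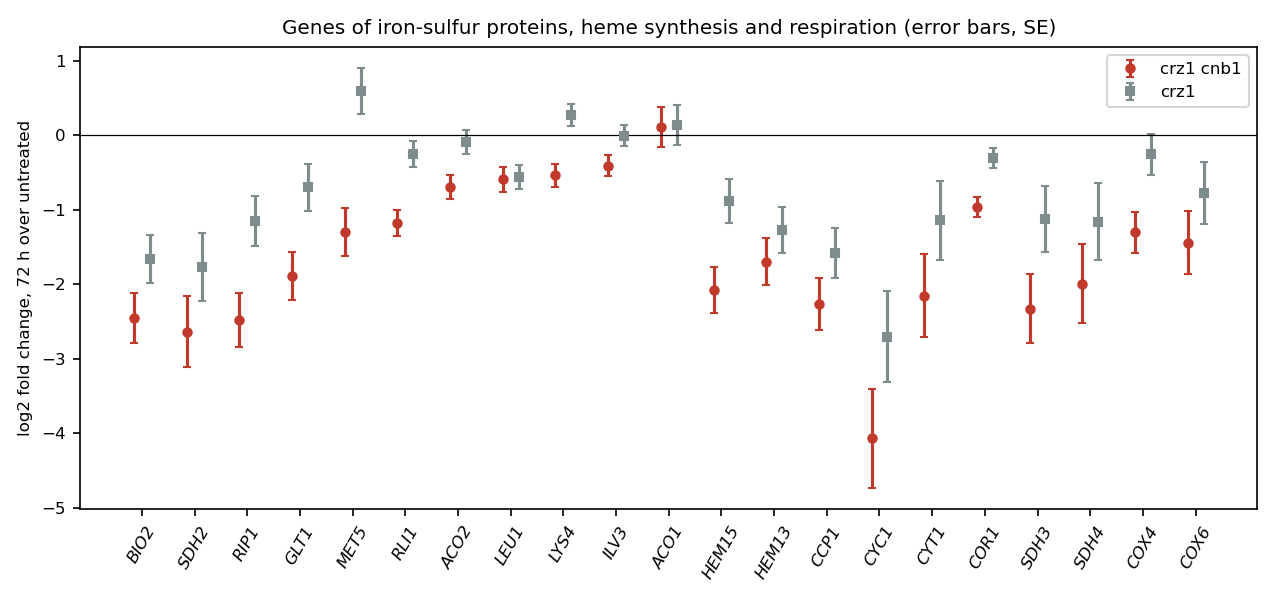
Log2 change of 72 h over untreated, with its standard error as the bar and n = 3 libraries per group, for genes of iron-using proteins in crz1 cnb1 (red circles) and crz1 (grey squares). In crz1 cnb1 SDH2 lies at -2.64 and CYC1 at -4.07, while ACO1 lies at 0.11.

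The respiratory chain fell throughout the bc1 complex, in most genes of cytochrome oxidase and in few of ATP synthase. All 10 tested genes of the cytochrome bc1 complex with cytochrome c were called lower, with a median of -1.69. CYC1, the main cytochrome c, had 1.49, 1.57 and 0.941 CPM at 72 h, against 23.6, 19.9 and 24.3 CPM untreated (-4.07 ± 0.67, adjusted p = 0.00014). RIP1, the Rieske iron-sulfur subunit, had 8.11, 8.71 and 6.73 CPM at 72 h, against 41.8, 45.2 and 44.3 CPM untreated (-2.48 ± 0.36). The calls of 2 members, QCR6 and QCR9, were lost without 1 library: QCR6 without 72 h replicate 1, 2 or 3 or untreated replicate 1, and QCR9 without 72 h replicate 2 or 3 or untreated replicate 3 (adjusted p 0.0679 to 0.168). For cytochrome oxidase 6 of 8 genes were called lower (median -0.998), beside 15.7% of all genes. For succinate dehydrogenase with the NADH dehydrogenases 5 of 9 were called lower and 1, the external NADH dehydrogenase gene NDE2, higher (1.27 ± 0.32, at 1.36 to 2.73 CPM at 72 h and 0.635 to 1.01 CPM untreated). SDH3 and SDH4, the membrane anchors, were at -2.33 ± 0.47 and -1.99 ± 0.54, and SDH1 at -1.19 ± 0.37, a call lost without 72 h replicate 2 (adjusted p = 0.061) or untreated replicate 3 (0.0612).

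ATP synthase had 2 genes called higher and 1 lower of 13, with a median of -0.10. Neither count is a larger share than the 20.1% higher and 15.7% lower over all genes. The higher count was 1 without 72 h replicate 3 or untreated replicate 2, and the lower count was 0 without any one of 5 libraries, untreated replicate 1 being the exception. ATP1, the alpha subunit, rose by 0.58 ± 0.16. CCAAT, the core bound by the Hap complex that turns on respiration, was sought within 500 bases. It was found in 8 of 10 bc1, 7 of 8 oxidase and 13 of 13 ATP synthase genes, beside 62.6% of all tested genes. From 250 bases before to 50 after the start it was found in 7, 7 and 12 of them, beside 43.6%. Whether that complex had a part in these changes was not tested. HAP4, the activating subunit of that complex, was not called (69.4, 66.6 and 59.2 CPM at 72 h, against 81.5, 281 and 280 CPM untreated, adjusted p = 0.086). Its untreated replicate 1 was near the 72 h libraries, and the other 2 untreated libraries were far above them. A fit of the 6 libraries alone (adjusted p = 0.034) and DESeq2 (0.0488) did call HAP4 lower, as did the fit without untreated replicate 1 (-2.11, adjusted p = 0.0468).

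The same untreated library lay low in several of the largest falls. HSP30, a plasma membrane protein induced by stress, had 4.16, 3.24 and 2.87 CPM at 72 h, against 5.88, 111 and 123 CPM untreated (-4.54 ± 1.35, adjusted p = 0.015). FMP48 had 5.57, 5.82 and 6.26 CPM at 72 h, against 14.2, 131 and 140 CPM untreated (-4.01 ± 1.12). In 8 of the 15 named falls untreated replicate 1 was below 0.5 times replicates 2 and 3, namely HSP30, FMP48, ISF1, AIM17, HXT6, MUP3, MGA1 and TPO4, and so it was in 33 of the 304 genes called at least 2-fold lower. Its part in these results was not tested. The calls of 5 of them rested on single libraries: HSP30 was lost without 72 h replicate 2 (adjusted p = 0.0534) or 3 (0.0538), and ISF1 without 72 h replicate 1 (0.0511) or 2 (0.0507). MGA1 was lost without 72 h replicate 2 (0.0516) or untreated replicate 2 (0.0531). HXT6 and TPO4 were lost without any one library other than untreated replicate 1 (0.0745 to 0.0984), and on log2(TPM + 1) with limma (0.0918 and 0.0586). HXT6 is nearly identical to HXT7, so reads of these hexose transporter genes may be shared between them.

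Biotin genes moved both ways. Of 6 tested, 4 were called lower and 2 higher, beside 15.7% and 20.1% of all genes. The biotin transporter gene VHT1 had 107, 113 and 142 CPM at 72 h, against 45.2, 45.0 and 46.7 CPM untreated (1.40 ± 0.25, adjusted p = 0.00022), and BPL1, which attaches biotin to enzymes, rose by 0.88 ± 0.16. BIO4 fell (-1.40 ± 0.27), and BIO5, a carrier of a biotin precursor, fell from a low level, at 0.0438 to 0.188 CPM at 72 h and 0.938 to 2.15 CPM untreated. BIO3 was called lower (-0.50 ± 0.19, adjusted p = 0.046), and this was lost without 72 h replicate 1 or 2 or untreated replicate 2 or 3 (adjusted p 0.0971 to 0.175).

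Some genes of redox balance were among the larger rises. HBN1, similar to bacterial nitroreductases, had 111, 109 and 103 CPM at 72 h, against 7.66, 5.33 and 3.37 CPM untreated (4.30 ± 0.34, adjusted p = 2.4e-08). OYE3, an NADPH dehydrogenase gene, rose by 2.67 ± 0.25. ZWF1, the entry enzyme of the pentose phosphate pathway and a source of NADPH, had 584, 598 and 661 CPM at 72 h, against 192, 139 and 131 CPM untreated (1.996 ± 0.19). The transketolase gene TKL2 rose by 2.59 ± 0.23 and the transaldolase gene NQM1 by 1.28 ± 0.27. Of 11 genes of this pathway 4 were called higher, beside 20.1% of all genes. Its 1 lower call, RKI1 (-0.42), was lost without 72 h replicate 1 or 2 or untreated replicate 2 or 3. Of 21 genes of peroxide and superoxide defence 5 were called higher and 5 lower, or 3 lower without 72 h replicate 2 or 3 or untreated replicate 3, which is near the shares over all genes (20.1% and 15.7%). The peroxiredoxin gene TSA1 had 1108, 1193 and 1139 CPM at 72 h, against 2686, 2463 and 2472 CPM untreated (-1.15 ± 0.17, adjusted p = 2.6e-05).

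Mating genes fell together. All 7 tested a-specific genes, which MATa cells use to find and bind a partner, were called lower, with a median of -1.66. AGA2, the binding subunit of a-agglutinin, had 33.8, 36.05 and 29.7 CPM at 72 h, against 274, 267 and 282 CPM untreated (-3.05 ± 0.21, adjusted p = 1.7e-09). The pheromone gene MFA1 had 143, 170 and 160 CPM at 72 h, against 672, 915 and 857 CPM untreated (-2.37 ± 0.41), and the receptor gene STE2 was at -1.26 ± 0.21. The groups did not overlap for any of these 3. Of 27 genes of the pheromone pathway and its targets 16 were called lower and 4 higher, with a median of -0.55. Over all genes 15.7% were called lower and 20.1% higher. FUS1, needed for cell fusion, had 7.15, 8.88 and 3.43 CPM at 72 h, against 79.7, 52.6 and 38.3 CPM untreated (-3.13 ± 0.36). AGA1 (-3.22 ± 0.29), SST2, which shuts the signal off (-1.72 ± 0.19), and FIG1 (-4.31 ± 0.42, at 0.235 to 0.395 CPM at 72 h and 6.13 to 6.57 CPM untreated) fell as well.

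The 4 pheromone pathway genes that rose were chosen for naming after their values were seen. They are the kinase genes STE20 (1.11 ± 0.20) and STE11 (0.52 ± 0.11), the phosphatase gene MSG5 (0.50 ± 0.12) and the scaffold gene STE5 (0.32 ± 0.12, lost without any one library other than untreated replicate 1, adjusted p 0.0675 to 0.215). TGAAACA, the core bound by the pathway's factor Ste12, was found within 500 bases of 7 of the 7 a-specific genes and 17 of the 27 pheromone genes. This stood beside 11.8% of all tested genes and 16.4% of those called at least 2-fold lower. From 250 bases before to 50 after the start it was found in 5 of 7 and 14 of 27, beside 7.42% and 10.4%.

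Cell wall genes rose in part. Of 19 tested wall protein genes 7 were called higher and none lower, beside 20.1% and 15.7% of all genes. SED1, an abundant mannoprotein of stressed walls, had 14450, 11608 and 14981 CPM at 72 h, against 5592, 3987 and 4979 CPM untreated (1.495 ± 0.23, adjusted p = 5.5e-05), and HSP150 rose by 1.81 ± 0.15. Of 21 genes of the cell wall integrity pathway and its targets 8 were called higher and 2 lower (1 lower without any one of the 72 h libraries or without untreated replicate 3). RLM1, the transcription factor at the end of that kinase pathway, had 279, 245 and 247 CPM at 72 h, against 95.8, 70.3 and 66.4 CPM untreated (1.73 ± 0.19, adjusted p = 8.4e-07). KDX1, a kinase-like target, rose by 1.19 ± 0.21, NCW2 by 0.94 ± 0.16 and CRH1, which links chitin to glucan, by 0.88 ± 0.19. The flocculin genes of this list are close copies of each other, and their counts are uncertain.

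Of 15 genes of the G2/M cluster 9 were called higher and none lower (median 0.44), beside 20.1% and 15.7% of all genes. Among the 9 were the bud neck genes BUD4 (1.06) and BUD3 (0.91) and the kinase gene KIN3 (1.04 ± 0.13). The mitotic cyclin gene CLB2 (79.5, 77.5 and 80.2 CPM at 72 h, against 108, 77.5 and 75.9 CPM untreated) and the factor gene SWI5 were not called, so the rise covered part of the cluster. In daughter cell separation 5 of 11 were called higher and none lower, with the largest change in PRY3 (1.75) and DSE4 (1.16).

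Nutrient genes gave a mixed picture, to be read beside the 20.1% of all genes called higher and the 15.7% called lower. PHO84, the high-affinity phosphate transporter, had 1649, 1728 and 3906 CPM at 72 h, against 263, 86.7 and 364 CPM untreated (3.35 ± 0.77, adjusted p = 0.0029). In the phosphate regulon 8 of 20 genes were called higher and none lower, and 5 higher without 72 h replicate 3 or without untreated replicate 2. The spread between libraries was wide in both groups. GDH3, a glutamate dehydrogenase that uses ammonium, had 35.7, 39.6 and 62.7 CPM at 72 h, against 5.04, 5.50 and 6.26 CPM untreated (3.04 ± 0.26), and GAT1, an activator of nitrogen use, rose by 1.60 ± 0.28. Of 26 nitrogen genes 10 were called higher and 2 lower (PUT1 and DAL4, 1 or 0 without any one library other than untreated replicate 1). Of 12 thiamine and pyridoxine genes 8 were called higher, such as the thiamine transporter gene THI7 (1.37 ± 0.16), and the acid phosphatase gene PHO3, which serves thiamine uptake, fell (-1.06 ± 0.18). Among 12 zinc genes 4 were called lower and 1 higher, COT1, a vacuolar zinc and cobalt carrier (1.64 ± 0.23), with 2 higher without 72 h replicate 1.

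Part of the genes of vacuolar breakdown and stress protection rose. Of 16 vacuolar protease and autophagy genes 8 were called higher, beside 20.1% of all genes, and none lower, or 1 lower without untreated replicate 1. PRB1, the vacuolar protease B, had 159, 153 and 166 CPM at 72 h, against 34.6, 36.7 and 35.4 CPM untreated (2.16 ± 0.22, adjusted p = 3.9e-07). Of 15 general stress genes 7 were called higher. HSP26, a small heat shock protein, had 23.3, 24.02 and 59.3 CPM at 72 h, against 6.47, 7.12 and 6.04 CPM untreated (2.44 ± 0.42), and HSP12 rose by 2.19 ± 0.57. In both, 72 h replicate 3 was the highest library, as it was in 13 of the 15 named rises. The 1 lower call, that of the heme-bearing catalase gene CTT1 (-1.54), was lost without 72 h replicate 1 or 2 or untreated replicate 2 or 3.

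Of 14 genes of calcium transport and signalling 3 were called higher and 2 lower, close to the shares over all genes (20.1% and 15.7%), so these counts do not set the list apart. The vacuolar calcium pump gene PMC1 was at 0.36, the channel gene CCH1 at 0.43 and the calcineurin regulator gene RCN1 at 0.46, all called. CMK2, a calmodulin-dependent kinase, was at -0.62 and CNA1, a catalytic subunit of calcineurin, at -0.46. The calls of PMC1 (without 72 h replicate 3 or untreated replicate 1), CCH1 (without untreated replicate 2) and CMK2 (without untreated replicate 2 or 3) rested on single libraries (adjusted p 0.0548 to 0.0979). With limma on log2(TPM + 1), CCH1, CMK2 and CNA1 were not called (adjusted p 0.0653 to 0.0843). The largest change among the 14 was that of CMK2.

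Cytosolic ribosomal protein genes were lower for 71 of 137 and higher for 2, with a median of -0.46, beside 15.7% of all genes called lower and 20.1% higher. Leaving out 72 h replicate 1 gave 38 lower, 72 h replicate 2 gave 37, untreated replicate 2 gave 41 (1 higher) and untreated replicate 3 gave 34, and it was 120 in a fit of the 6 libraries alone. Most of these genes exist as near-identical pairs whose reads may be shared. Mitochondrial ribosomal protein genes behaved otherwise: 9 of 67 were called higher and none lower by edgeR (2 lower at an unadjusted p below 0.05), with a median of -0.02. The 9 are no larger a share than the 20.1% over all genes, so this count shows no rise of the list. The number called lower was 2 by DESeq2, 1 without 72 h replicate 1 and 2 without untreated replicate 1.

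The strain with Cnb1 but without Crz1 served as the comparison for calcineurin. In crz1, 2578 genes were called at 72 h (42.3%), 1375 higher (22.6%) and 1203 lower (19.8%), from libraries that it does not share with crz1 cnb1. Of the genes higher in crz1 cnb1, 934 were also higher in crz1, which is 76.4% of the crz1 cnb1 list and 67.9% of the crz1 list. Of the lower genes 507 were shared, 53.2% and 42.1% of the lists. The test of the difference between the strains' 72 h changes called 36 genes (0.591%), 31 with a positive difference (0.509%), meaning a higher change in crz1 cnb1, and 5 with a negative one (0.0821%). Leaving out crz1 72 h replicate 3 gave 3 genes, crz1 untreated replicate 2 gave 9 and crz1 72 h replicate 2 gave 87. The 3 genes called whichever of the 12 libraries was left out were MET3, MET17 and COX23.

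MET3 and MET17 act in sulfate assimilation, MET3 as the ATP sulfurylase and MET17 as the enzyme that builds sulfide into homocysteine. MET3 had 33.8, 33.8 and 29.3 CPM at 72 h, against 98.9, 58.8 and 58.7 CPM untreated in crz1 cnb1. In crz1 it had 283, 128 and 179 CPM at 72 h, against 115, 69.4 and 85.2 CPM untreated, so the gene was lower at 72 h in crz1 cnb1 and higher at 72 h in crz1 (difference -2.29 ± 0.38, adjusted p = 0.0082). MET17 had 440, 460 and 439 CPM at 72 h, against 1047, 717 and 687 CPM untreated in crz1 cnb1. In crz1 it had 2373, 1332 and 1665 CPM at 72 h, against 1024, 772 and 891 CPM untreated (difference -1.87 ± 0.30). Of 11 tested genes of sulfate assimilation 4 were called lower and 1 higher in crz1 cnb1, against none lower and 5 higher in crz1. Over all genes 15.7% were lower and 20.1% higher in crz1 cnb1, and 19.8% and 22.6% in crz1. The strain difference was called for 3 of the 11, all negative (7 at an unadjusted p below 0.05 and 6 by DESeq2). The other one, MET10, a sulfite reductase subunit gene, differed by -1.67 ± 0.35. MET10 was lost without any one of 7 libraries (adjusted p 0.0625 to 0.115), namely crz1 cnb1 72 h replicates 1 and 2, crz1 cnb1 untreated replicate 1, crz1 72 h replicates 1 and 3 and crz1 untreated replicates 2 and 3.

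COX23 codes for a small protein of the mitochondrial intermembrane space. COX23 had 27.9, 28.5 and 22.2 CPM at 72 h, against 19.9, 19.5 and 19.7 CPM untreated in crz1 cnb1. In crz1 it had 15.3, 13.7 and 14.6 CPM at 72 h, against 25.2, 20.6 and 27.1 CPM untreated (difference 1.15 ± 0.19, adjusted p = 0.0082). Of 17 tested genes of intermembrane space import and its twin CX9C substrates 3 were called higher and 1 lower in crz1 cnb1, against 2 higher and 10 lower in crz1. Over all genes 20.1% were higher and 15.7% lower in crz1 cnb1, and 22.6% and 19.8% in crz1. The 3 higher calls in crz1 cnb1 are thus near the share over all genes. In crz1 cnb1 the higher count was 1 without 72 h replicate 1 or 2 or untreated replicate 2 or 3, and the lower count was 0 without 72 h replicate 1 or 3 or untreated replicate 2 or 3. The difference was called for 4, which besides COX23 were the import receptor gene MIA40 (1.15 ± 0.21), the copper carrier gene COX17 (1.26 ± 0.29) and COA4 (1.66 ± 0.27). MIA40 was lost without crz1 72 h replicate 3, crz1 cnb1 untreated replicate 1 or crz1 untreated replicate 2 (adjusted p 0.0517 to 0.0789), and COA4 without crz1 72 h replicate 3 (0.0515). COX17 was lost without any one library other than crz1 cnb1 72 h replicate 3 and crz1 72 h replicate 2 (0.0589 to 0.15). The list's 4 calls became 1 without crz1 72 h replicate 3, and 2 without crz1 cnb1 untreated replicate 1 or crz1 untreated replicate 2.

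Mitochondrial ribosomal protein genes differed in 1 direction between the strains. In crz1, 55 of 67 were called lower and 4 higher (median -0.67), against none lower and 9 higher in crz1 cnb1. Over all genes 19.8% were called lower and 22.6% higher in crz1, and 15.7% and 20.1% in crz1 cnb1. The difference was positive for 67 of 67, beside 51.7% of all genes, and it was called for 12 by edgeR, 34 by DESeq2 and 58 at an unadjusted p below 0.05. The 12 calls rested on single libraries: none remained without crz1 72 h replicate 3, 3 were made without crz1 cnb1 72 h replicate 1 or 2, crz1 cnb1 untreated replicate 1 or crz1 untreated replicate 2, and 7 without crz1 72 h replicate 1. They were 18 without crz1 72 h replicate 2 and 20 without crz1 cnb1 72 h replicate 3. MRPL11 had 42.0, 46.5 and 41.3 CPM at 72 h, against 39.4, 42.3 and 41.4 CPM untreated in crz1 cnb1. In crz1 it had 30.6, 33.3 and 27.7 CPM at 72 h, against 48.6, 47.8 and 49.4 CPM untreated (difference 0.74 ± 0.13, adjusted p = 0.00904, and 0.0515 without crz1 72 h replicate 3). For MRPL11 the groups overlapped in crz1 cnb1 and lay apart in crz1. The median difference of these 67 genes was 0.69, beside 0.02 for all genes. On the deposited TPM scale it was 0.84, beside 0.15 for all genes, so the sign of small differences depends on the scaling.

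**Figure D4:**
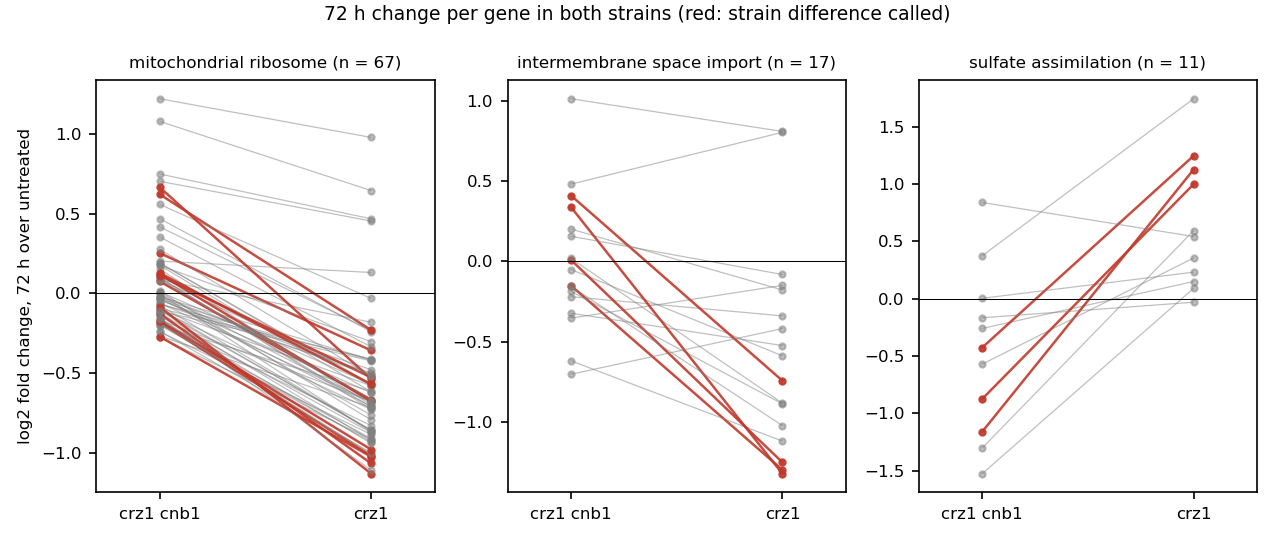
Log2 change of 72 h over untreated for each tested gene of 3 lists, joined by a line between crz1 cnb1 (left) and crz1 (right), with genes whose strain difference was called in red. The 67 mitochondrial ribosomal protein genes center on -0.02 in crz1 cnb1 and on -0.67 in crz1, and the called sulfate genes lie below 0 in crz1 cnb1 and above 0 in crz1.

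For the iron genes of the lists below the strain difference was not called by edgeR over all 24 libraries. Siderophore genes were higher for 7 of 7 in crz1 cnb1 and for 7 of 7 in crz1, with medians of 4.09 and 3.53. Iron-sulfur enzymes were lower for 10 of 11 in crz1 cnb1, against 4 of 11 in crz1, and bc1 genes for 10 of 10, against 4 of 10. The difference was called by edgeR for 0 of the 11 iron-sulfur genes, all 11 being below 0, with 6 at an unadjusted p below 0.05 and 3 by DESeq2. For the 10 bc1 genes, all 10 being below 0, it was called for 0, with 4 at an unadjusted p below 0.05 and 1 by DESeq2. RIP1 had 28.8, 15.5 and 16.9 CPM at 72 h in crz1 (difference -1.33 ± 0.48, adjusted p = 0.204) and RLI1 differed by -0.93 ± 0.24 (adjusted p = 0.0712). DESeq2 did call RLI1 (adjusted p = 0.0181) and LYS4 (0.0179). With only the libraries compared, 4 of the 11 iron-sulfur genes and 4 of the 10 bc1 genes were called, RLI1 (0.0209), LYS4 (0.0209), GLT1 (0.0022) and RIP1 (0.0285) among them. How many of these differences were called thus depended on the fit. The median difference was -0.81 for iron-sulfur enzymes and -0.63 for bc1 genes, beside 0.02 over all genes, and stayed below 0 in every fit.

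Siderophore genes were already high at 12 h, while fewer iron-sulfur enzymes were called lower at 12 h than later. Siderophore genes were called higher for 7 of 7 at 12 h (12.9% of all genes), 48 h (14.3%) and 72 h, with medians of 3.75, 3.92 and 4.09. Iron-sulfur enzymes were lower for 4 of 11 at 12 h (7.67% of all genes), 9 of 11 at 48 h (9.54%) and 10 of 11 at 72 h. The bc1 genes were lower for 8, 9 and 10 of 10. These comparisons share the untreated libraries, so their likeness is no separate result. Compared directly with 12 h, 10 of the 11 iron-sulfur enzymes lay lower at 72 h, 9 of them at an unadjusted p below 0.05 by edgeR. DESeq2 called 7 lower, and edgeR with only the libraries compared called 4. Over all genes that direct comparison called 270 by edgeR, 142 of them lower (2.33% of all genes), and 26 without 12 h replicate 3. DESeq2 called 311 of 7126 genes lower, and edgeR with only the libraries compared called 127 of 5899. Cytosolic ribosomal protein genes were lower for 1, 5 and 71 of 137 at 12, 48 and 72 h, but the direct comparison of 72 h with 48 h called 0 of 137 by edgeR (80 lower at an unadjusted p below 0.05 and 21 lower by DESeq2), and the 71 became 34 to 41 without any one of 4 libraries, as given above. Wall protein genes were higher for 1, 1 and 7 of 19 at 12, 48 and 72 h.

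**Figure D5:**
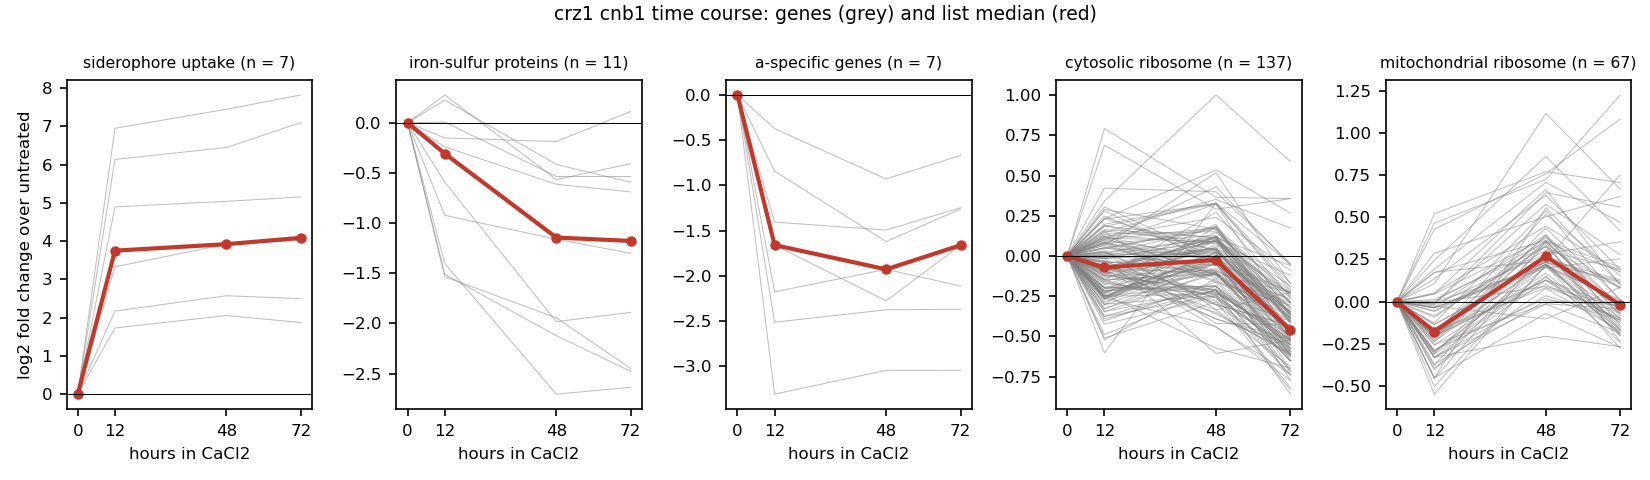
Log2 change over untreated in crz1 cnb1 at 12, 48 and 72 h for each tested gene of 5 lists (grey lines), with the list median in red and the untreated state set to 0. The siderophore median lies at 3.75, 3.92 and 4.09, and the iron-sulfur median at -0.31, -1.14 and -1.18.

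Between 48 and 72 h the cells changed in 45 genes (0.739%), 42 higher (0.69%) and 3 lower (0.0493%). The 9 called whichever library was left out were all higher: WSC4, SED1, HRK1, RLM1, HSP150, PHD1, PLN1, URA8 and PST1. SED1, HSP150, PST1 and the sensor gene WSC4 serve the cell wall. SED1 had 14450, 11608 and 14981 CPM at 72 h, against 4300, 4697 and 4497 CPM at 48 h (1.60 ± 0.23, adjusted p = 0.00371). RLM1 had 279, 245 and 247 CPM at 72 h, against 117, 118 and 120 CPM at 48 h (1.12 ± 0.18, adjusted p = 0.00371). The 48 h libraries lay close together in both genes and below all 72 h libraries. WSC4 had 33.6, 30.9 and 50.7 CPM at 72 h, against 9.94, 9.52 and 11.1 CPM at 48 h, while its untreated libraries (39.4, 25.5 and 28.8 CPM) overlapped those at 72 h. Without any one of the 6 libraries 9 to 21 genes were called, and on log2(TPM + 1) with limma the split was 23 higher and 12 lower.

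Against 12 h, 270 genes were called at 72 h (4.43%), 128 higher (2.1%) and 142 lower (2.33%), and 26 were called without 12 h replicate 3. On log2(TPM + 1), where the median of all genes lay at 0.15, limma called 161 higher and 62 lower. The 20 genes called whichever library was left out, 15 higher and 5 lower, included RLM1 (1.298 ± 0.18), KDX1 (1.09 ± 0.21) and CIS1 (2.33) among the higher ones and the sterol enzyme gene ERG7 (-0.59, adjusted p = 0.0601 on log2(TPM + 1) with limma) and the pentose phosphate gene GND1 (-0.78) among the lower ones. GLT1 had 28.1, 24.7 and 27.6 CPM at 72 h, against 30.3, 60.01 and 107 CPM at 12 h (-1.298 ± 0.32, adjusted p = 0.0263). The 12 h libraries spread over a wide range, from the 72 h level in replicate 1 to the untreated level in replicate 3. The GLT1 call was lost without 12 h replicate 2 or 3 or any one of the 72 h libraries (adjusted p 0.0514 to 0.257) and with only the 6 libraries compared (0.1). The part of 12 h replicate 3 in the lower calls was not tested.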

How the data were processed

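PolyA RNA libraries were made by a sequencing company, per the labels' protocols. Raw read counts per gene were deposited by the authors, who used featureCounts and build R64, per the submitters' processing notes. These notes also name DESeq2. TPM values of the same libraries were deposited by the authors and served in an alternative. The aligner, the tool versions and any use of strand in counting were not given in the sources used here, so antisense and overlapping genes may share reads. The count table held 7126 genes and 6737 had TPM. The members and gene lists were chosen with earlier results of these data known.

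Counts of all 24 libraries were fitted in R 4.3.3 by edgeR 4.0.16 (scaled by TMM, default filter on low counts, robust quasi-likelihood F test, 1 coefficient per group), and a gene was called at an adjusted p (Benjamini-Hochberg) below 0.05. CPM uses the TMM-scaled library sizes. P-values measure the spread between cultures as labelled. Replicates of a group differed beyond sampling noise, so none was merged. Alternatives were RLE factors, no filter, a replicate block, only the libraries compared, DESeq2 1.42.0, limma 3.58.1 on log2(TPM + 1) or log2(TPM + 0.1), and each library left out. On that TPM scale changes of low genes are understated. The fit was also run on simulated counts in which no library stood apart, so that run cannot show how the fit copes with such libraries.

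Named genes were the 15 largest rises and falls among genes that were called, had a standard name, reached a group mean of 10 CPM and showed no overlap of the libraries. Added were the 10 largest per direction in each other comparison, 4 members per list by smallest p and any member of a list of up to 20. MRPL11, named after its values were seen, falls outside this rule. Upstream regions came from RefSeq's R64 genome, and the 500 base window was added after the data were seen. Figures used matplotlib 3.10.9 in Python 3.11.15.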

Additional observations from a re-analysis of the deposited data

Results flagged for a closer look

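The change at 72 h over untreated differed between crz1 cnb1 and crz1, by edgeR's test of the difference itself, for 11 of the genes named above. With positive differences, meaning a higher change in crz1 cnb1, these were CIS1 (3.45), COA4 (1.66), KDX1 (1.59), COX17 (1.26), COX23 (1.15), MIA40 (1.15) and MRPL11 (0.74). With negative differences they were MET3 (-2.29), MET17 (-1.87), MET10 (-1.67) and ERG7 (-0.62). CIS1, whose product takes part in autophagy, had 27.5, 23.2 and 13.8 CPM at 72 h, against 2.79, 8.40 and 7.66 CPM untreated in crz1 cnb1. In crz1 it had 1.70, 2.55 and 1.78 CPM at 72 h, against 3.93, 8.30 and 7.13 CPM untreated. CIS1 no longer passed when crz1 72 h replicate 3 (adjusted p = 0.0691), crz1 cnb1 72 h replicate 1 (0.0513) or crz1 untreated replicate 2 (0.0547) was left out. KDX1 had 54.8, 50.3 and 49.6 CPM at 72 h, against 17.8, 22.9 and 27.1 CPM untreated in crz1 cnb1, and 13.8, 14.7 and 15.5 CPM at 72 h, against 14.3, 20.3 and 23.4 CPM untreated in crz1. KDX1 no longer passed when crz1 72 h replicate 3, crz1 cnb1 72 h replicate 1, crz1 cnb1 untreated replicate 1 or crz1 untreated replicate 2 was left out (adjusted p 0.0515 to 0.0615). ERG7 no longer passed without any one library other than crz1 72 h replicate 2 and crz1 untreated replicate 1 (adjusted p 0.0511 to 0.141), without a filter on low counts (0.0556) and on log2(TPM + 1) with limma (0.261). MET10, MIA40, COX17, COA4 and MRPL11 also lost their calls without single libraries, as given with their values above.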

How the results depend on the processing

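The count of genes changed at 72 h over untreated stayed within 1.5 times of 2175 under the alternatives run, with 1471 to 2311 when 1 library was left out (lowest without untreated replicate 3). DESeq2 gave 1211 higher and 1132 lower, limma on log2(TPM + 1) gave 1011 and 762, and a fit of only the 6 libraries gave 1444 and 1430. The smaller counts moved more. The strain difference was called for 216 genes with only the libraries compared, 167 by DESeq2, 67, 60 and 59 by limma on log2(TPM + 1), log2(TPM + 0.1) and log2(TPM + 1) without a filter, and 3 to 87 with 1 library left out. The comparison with 48 h gave 1420 with only the libraries compared, 376 by DESeq2, 26 by limma on log2(TPM + 1) without a filter, and 9 to 21 with 1 library left out. The comparison with 12 h gave 517 by DESeq2 and 26 to 418 with 1 library left out. The causes were not tested. Of the genes whose levels at 72 h and untreated are given above for crz1 cnb1, ACO1 and CLB2, neither of them called, changed sign of their log2 change with 1 library left out: ACO1 lay between -0.0204 (without untreated replicate 2) and 0.247 (without untreated replicate 1), and CLB2 between -0.23 (without untreated replicate 3) and 0.046 (without untreated replicate 1). No depth limit bears on the named genes above 10 CPM in both groups. Fold changes of genes that are low in either group, such as LSO1, BIO5, NDE2, FIG1, CYC1 and HSP30, rest on low counts there.

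Replicates with the same number paired at most in part. Between 72 h and untreated in crz1 cnb1, their deviations from the group means correlated across genes by 0.0695, 0.068 and 0.235. Replicate 1 at 72 h correlated best with untreated replicate 2, while replicate 3 correlated best with replicate 3. The latter also held for replicate 3 at 72 h against 48 h (0.101), against 12 h (0.123) and for crz1 at 72 h against untreated (0.266). A shared effect of the number was not tested. With the number as a replicate block, 1443 genes were higher and 1148 lower at 72 h over untreated, the strain difference was called for 157, the comparison with 48 h for 291 and that with 12 h for 522. That fit also called HAP4 at 72 h over untreated (adjusted p = 0.021) and the strain difference of RLI1 (0.0315) and LYS4 (0.0385), and called 35 mitochondrial ribosomal protein genes in the strain difference.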
